A study of Mus musculus with 8 samples.

Results

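The complement genes described here are 9 of the 54532 genes in the deposited table, taken by their symbols. They are the C1 proteases *C1ra* and *C1s1*, the components *C4b*, *C2* and *C3*, the alternative pathway genes *Cfb* and *Cfd*, the C1 inhibitor gene *Serping1* and the C3a receptor gene *C3ar1*. The C1q chains were left out of these 9 because macrophages are a major source of them. Complement is a cascade of proteins in blood and tissue that marks damaged cells and microbes, attracts leukocytes and can form pores in membranes. In the classical pathway C1q binds a target and switches on the proteases C1r and C1s, which cut C4 and C2 into the parts of an enzyme that cuts C3. In the alternative pathway factor D cuts factor B on C3 fragments to build another such enzyme, C1 inhibitor blocks C1r and C1s, and the released peptide C3a signals through its receptor on leukocytes. Hepatocytes make most complement of the plasma, and fibroblasts and macrophages of injured tissue transcribe several of its genes.

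The 8 libraries hold RNA of eGFP+ MICFs, which are cardiac fibroblasts isolated from infarcted hearts of male C57BL/6 mice, with 2 libraries in each of 4 groups. Before the experiment all cells were infected with doxycycline-inducible lentiviruses for MGT (*Mef2c*, *Gata4* and *Tbx5* on one transcript), *Myocd*, *Sall4* and eGFP, which the labels call MGTMyoS overexpression. The *in vivo* cells were injected into the left ventricle of 8-week-old male C57BL/6 mice just after ligation of the left anterior descending artery, with doxycycline in the drinking water and daily tacrolimus, methylprednisolone and mycophenolate mofetil. The *in vitro* cells stayed in culture. The medium described for infected MICFs held serum, doxycycline, SB431542 (an inhibitor of the TGF-β receptor) and baricitinib (an inhibitor of the kinases JAK1 and JAK2), and that these libraries were grown in it is taken from the methods and not from their labels. Cells of both arms were sorted for eGFP on Days 7 and 14, here 1 week and 2 weeks. The heart, the immunosuppressants and the culture agents differ together between the arms and cannot be told apart. No animal or well is named for a replicate, so that the p-values measure only the spread between these libraries, which may be technical. Depletion of CD45+ cells is described for purified MICFs but is not stated for these libraries.

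Between 12304242 and 14546904 fragments per library fell on genes, and values are FPKM, fragments scaled by gene length and library size. In these libraries a single fragment on 1 kb of gene was worth an FPKM of 0.0650 to 0.0905. Expression was compared by limma on log2(FPKM + 0.1), a scale on which fold changes of weakly expressed genes come out too small. Differences are given as log2FC, the *in vivo* minus the *in vitro* mean on that scale, ± standard error (SE). A gene was called higher or lower at a Benjamini-Hochberg adjusted p under 0.01 over the 15708 genes tested and an absolute log2 fold change over 1. Macrophage markers were present in every library. All 14 macrophage markers were tested and none was at 0 in every library, although *Ccr2* was at 0 in both *in vitro* libraries of 2 weeks. They had a summed FPKM of 1391 to 2216 *in vivo* and 3932 to 5052 *in vitro*, most of it *Lyz2*. The 11 fibroblast markers summed to 11025 to 14029 *in vivo* and 2437 to 3664 *in vitro*, the 6 mesothelial markers to 13.1 to 31.1 and 234 to 487, and the 5 endothelial markers to 61.2 to 76.3 and 19.4 to 46.0. The 6 cardiomyocyte markers summed to 9.65 to 22.2 *in vivo* and 105 to 622 *in vitro*, and 5 of them were called lower and 1 higher *in vivo* at each week. The 5 neutrophil markers reached at most 9.46 and the 5 T cell markers at most 1.53 in any library. Of the hepatocyte markers *Alb* and *Serpina1a* were at 0 in every library, and all 5 together reached at most 0.954. Of the 8 adipocyte markers *Adipoq* and *Lep* were also at 0 in every library. These 8 markers summed to 16.3 to 23.1 *in vivo* and 8.42 to 17.9 *in vitro*. Among them *Fabp4* was called higher *in vivo* at both weeks (log2FC 2.55 and 1.00) and *Pparg* lower at 2 weeks (-2.43). Which cells made a transcript was therefore not measured, and in bulk RNA fewer cells of a type and less RNA per cell cannot be told apart.

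Of the 9 genes, 8 were tested. *C4b* and *Cfb* passed the filter (2 or more libraries at an FPKM of 0.5 or above) only through the *in vivo* samples, and *Cfd* did not pass it. At 1 week 4 of the 8 were higher *in vivo* than *in vitro*, *C4b*, *C3*, *Serping1* and *Cfb*, and 0 were lower by limma, at an unadjusted p under 0.05 or with voom, where 7.79% of all tested genes were higher, 5.07% lower and 12.9% changed in either direction. At 2 weeks 5 were higher, those 4 and *C1ra*, and *C3ar1* was lower, where 9.02% of all tested genes were higher and 8.05% lower. Since *C4b* and *Cfb* were tested only because they were high *in vivo*, the filter favoured them as higher, and of the 6 genes without them 2 were higher after the first week, and after the second 3 were higher and 1 was lower. The median log2 fold change of these 6 was 0.80 at 1 week and 1.13 at 2 weeks, and that of all tested genes was -0.0058 and -0.0034. The 2 comparisons rest on different libraries but share one estimate of the spread. The sums of fibroblast and endothelial markers were higher in the *in vivo* libraries and those of macrophage, mesothelial and cardiomyocyte markers lower, as given above, and their part in these differences was not tested.

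**Figure D1:**
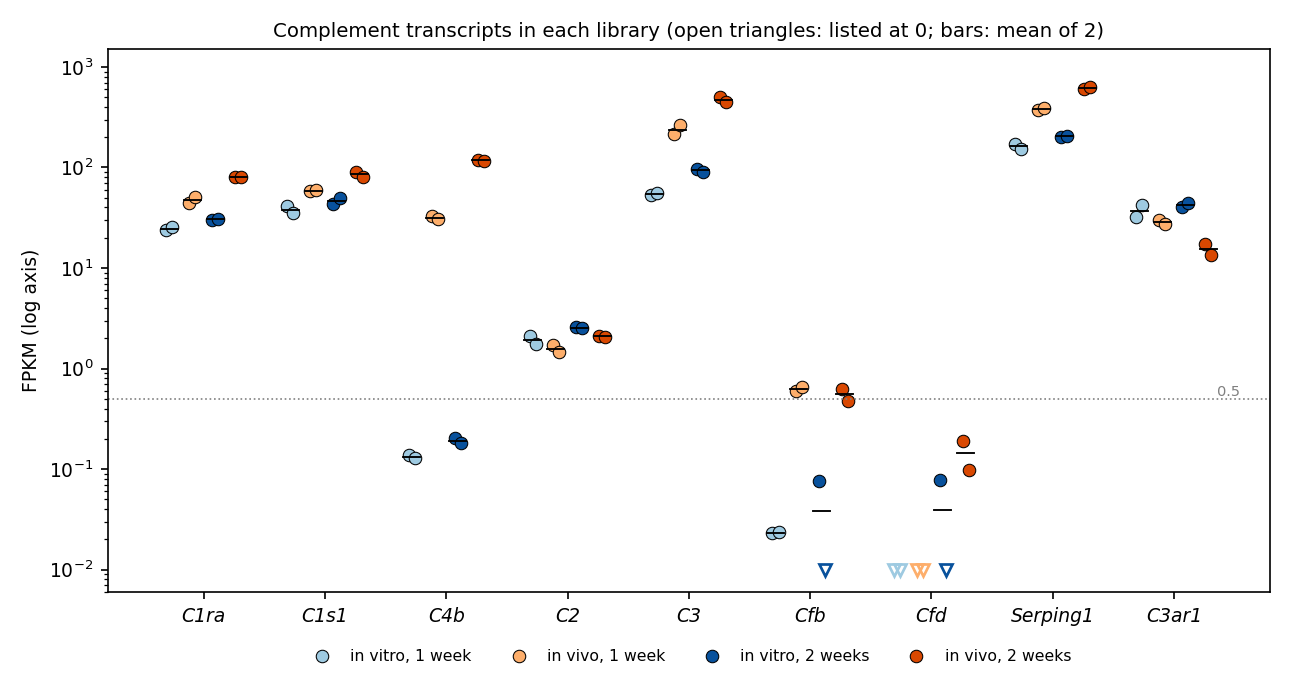
FPKM (log axis) of the 9 complement genes in each of the 8 libraries, coloured by group, with bars for the mean of 2 libraries, open triangles for libraries listed at 0 and a dotted line at the filter of 0.5. *C4b* stands apart between the arms, with an FPKM of 30.6 to 117.9 *in vivo* and 0.129 to 0.203 *in vitro*, while *C2* stays between 1.45 and 2.58 in every library.

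The sequence before the transcript start is shown for *C3*, an abundant component that was higher *in vivo*, for the C1 protease genes *C1s1* and *C1ra*, and for *C3ar1*, which moved the other way at 2 weeks. Each is the 250 bases upstream of a start in RefSeq, on GRCm38.p6 and read 5′ to 3′ on the gene's strand. They lie at chr17:57228137-57228386 on the minus strand, chr6:124542360-124542609 on the minus strand, chr6:124512371-124512620 on the plus strand and chr6:122856158-122856407 on the minus strand, in that order. The deposited gene *C1ra* begins at 124512405, so that most bases printed for it lie inside the gene as deposited. Few bases before that deposited start were searched. Capitals mark matches to a C/EBP motif (TTNNGCAA) or an NF-kB motif (GGGA and CC with any 4 bases between), each searched on both strands.
C3: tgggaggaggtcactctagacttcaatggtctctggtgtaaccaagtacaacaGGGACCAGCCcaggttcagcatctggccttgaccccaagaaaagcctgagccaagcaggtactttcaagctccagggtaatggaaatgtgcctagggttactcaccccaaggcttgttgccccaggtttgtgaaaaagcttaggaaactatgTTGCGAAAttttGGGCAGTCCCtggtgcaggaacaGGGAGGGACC
C1s1: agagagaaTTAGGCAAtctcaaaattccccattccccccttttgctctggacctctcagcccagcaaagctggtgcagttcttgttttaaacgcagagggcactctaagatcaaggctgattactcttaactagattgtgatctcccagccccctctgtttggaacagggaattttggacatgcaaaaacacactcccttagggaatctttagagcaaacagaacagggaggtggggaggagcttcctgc
C1ra: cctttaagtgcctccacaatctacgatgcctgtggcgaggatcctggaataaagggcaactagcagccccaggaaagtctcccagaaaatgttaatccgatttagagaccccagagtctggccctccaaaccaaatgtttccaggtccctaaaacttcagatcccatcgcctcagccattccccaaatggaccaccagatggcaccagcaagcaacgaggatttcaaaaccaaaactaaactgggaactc
C3ar1: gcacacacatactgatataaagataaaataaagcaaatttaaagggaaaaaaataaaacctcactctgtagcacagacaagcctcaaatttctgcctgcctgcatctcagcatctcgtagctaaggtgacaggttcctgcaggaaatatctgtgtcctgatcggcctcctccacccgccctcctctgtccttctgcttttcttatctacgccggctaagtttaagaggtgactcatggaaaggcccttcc

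The *C3* sequence held 1 match to the C/EBP motif, which began 45 bases before the start, and 3 matches to the NF-kB motif, which began 197, 33 and 10 bases before it. The *C1s1* sequence held 1 C/EBP match, 242 bases before the start. RefSeq has another start of *C1s1*, with its upstream bases at chr6:124542322-124542571, and there the C/EBP match lay outside and an NF-kB match began 35 bases before the start. The sequences of *C1ra* and *C3ar1* held none of the motifs. The interferon motifs searched for, ISRE (GAAA and GAAA with any 2 bases between) and GAS (TTCNNNGAA), were in none of the 4 sequences. Counted from 250 bases before to 50 after the start, the C/EBP motif was in 10.8% of 32851 promoters, the NF-kB motif in 20.7%, GAS in 8.30% and ISRE in 3.44%. In that longer window *C1ra* had a C/EBP and a GAS match after its RefSeq start and *C1s1* an NF-kB match. *Cfd*, the fifth of the 9 genes with a promoter in the table, had no match. A match describes the letters only, and *C2*, *C4b*, *Serping1* and *Cfb* had no entry.

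The C1 protease genes had the smallest differences of the 6 genes with log2 fold changes above 0. *C1ra* (ENSMUSG00000055172, chromosome 6 from 124512405 to 124523443, plus strand; all coordinates are on GRCm38) encodes C1r, the protease that C1q binding switches on first. Its FPKM at 1 week was 44.8 and 51.2 *in vivo* and 23.8 and 25.3 *in vitro*. At 2 weeks it was 80.4 and 80.0 *in vivo* and 30.3 and 31.1 *in vitro*. The lowest *in vivo* library lay above the highest *in vitro* library at both weeks. Its log2FC of 0.96 ± 0.075 (SE, adjusted p = 1.01e-04) at 1 week stayed under the fold limit, and that of 1.38 at 2 weeks (adjusted p = 1.60e-05) passed it. The 1-week value passed the fold limit without *in vivo* replicate 1 (1.06) or without *in vitro* replicate 2 (1.005). *C1s1* (ENSMUSG00000038521, chromosome 6 from 124530345 to 124542359, minus strand) encodes C1s, which C1r cuts and which then cuts C4 and C2. Its FPKM was 58.4 and 59.3 *in vivo* and 41.0 and 35.2 *in vitro* at 1 week. At 2 weeks it was 90.7 and 80.4 *in vivo* and 43.6 and 49.2 *in vitro*. Every *in vivo* library was above every *in vitro* library, and yet the log2FC of 0.63 (adjusted p = 0.0026) and 0.88 (adjusted p = 4.49e-04) were under the fold limit. Of the sequence of *C1ra* transcripts, 34.5% of the stretches of 100 bases are also in transcripts of its copy *C1rb*, and 6.87% of those of *C1s1* are in *C1s2*. *C1rb* stood at an FPKM of 0.0298 to 0.149 in 7 libraries and at 3.42 in replicate 2 of the *in vitro* samples at 2 weeks, so that fragments of *C1ra* could be split with it there. Of the exon bases of *C1s1*, 18.4% lie opposite *Gm16567*, listed at 0 in every library, and whether the counting used the strand is not given in the sources used here.

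*C4b* showed the largest difference of the 9 genes. It encodes C4, whose larger fragment binds to the target surface and carries the classical pathway on (ENSMUSG00000073418, chromosome 17 from 34728380 to 34743882, minus strand). At 1 week its FPKM was 32.9 and 30.6 *in vivo* and 0.137 and 0.129 *in vitro*. At 2 weeks it was 117.9 and 117.3 *in vivo* and 0.203 and 0.181 *in vitro*. The *in vitro* libraries held little of the transcript at either time, and the *in vivo* libraries of the second week stood well above those of the first. The fragments behind these values were 4466 *in vivo* and 23 *in vitro* at 1 week, a ratio of 238 after scaling (95% counting interval 158 to 376), and 14958 and 30 at 2 weeks, a ratio of 612 (429 to 908). These intervals cover counting error only, since copies made by PCR are not independent molecules. By limma *C4b* had a log2FC of 7.09 ± 0.094 (SE, adjusted p = 1.35e-07) after 1 week and 8.66 after 2 weeks (adjusted p = 3.50e-08), values that the pseudocount holds down. *C4b* had the ranks 1501 and 415 by mean FPKM among the 15708 tested genes *in vivo* at 1 week and 2 weeks, and 15169 and 14984 *in vitro*. Its copy *C4a*, with which it shares 15.2% of the stretches of 100 bases, stood between an FPKM of 0.0688 and 0.161 in every library.

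*C2* did not follow its partner. It encodes the protease that C1s cuts and that joins the C4 fragment in the enzyme that cuts C3 (ENSMUSG00000024371, chromosome 17 from 34862604 to 34898265, minus strand). Its FPKM was 1.70 and 1.45 *in vivo* and 2.10 and 1.76 *in vitro* at 1 week. By 2 weeks it was 2.13 and 2.08 *in vivo* and 2.58 and 2.54 *in vitro*. In each week the *in vivo* libraries were the lower ones by a little, and over both weeks the arms overlapped. The log2FC of *C2* was -0.28 at 1 week (95% interval -0.62 to 0.063, adjusted p = 0.17) and -0.27 at 2 weeks (-0.61 to 0.070, adjusted p = 0.16). These intervals contain 0 and leave out a log2FC of 1 in either direction.

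*C3*, the component on which all pathways meet, was the second most abundant of the 9 transcripts in every group (ENSMUSG00000024164, chromosome 17 from 57203970 to 57228136, minus strand). At 1 week its FPKM was 214 and 262 *in vivo* and 52.8 and 55.8 *in vitro*. The values at 2 weeks were 501 and 447 *in vivo* and 97.0 and 91.1 *in vitro*. Both arms were higher at the second week, and the lowest *in vivo* library was more than double the highest *in vitro* library of either week. *C3* had a log2FC of 2.12 ± 0.11 (SE, adjusted p = 1.57e-05) at the first week and 2.33 at the second (adjusted p = 8.11e-06). By mean FPKM *C3* had the ranks 164 and 84 of the tested genes *in vivo* at 1 week and 2 weeks and 776 and 476 *in vitro*.

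The genes of the alternative pathway were close to the limit of detection. *Cfb* encodes factor B, the protease that joins C3b in the enzyme of that pathway (ENSMUSG00000090231, chromosome 17 from 34856374 to 34862518, minus strand). Its FPKM was 0.605 and 0.652 *in vivo* and 0.0230 and 0.0237 *in vitro* at 1 week, from 44 and 2 fragments in all. After 2 weeks it had 0.627 and 0.481 *in vivo* and 0.0768 and 0 *in vitro*, from 35 and 3 fragments. The transcript was seen in each *in vivo* library and in no *in vitro* library beyond 3 fragments. The ratio was 27.0 at 1 week (95% counting interval 7.04 to 230) and 14.3 at 2 weeks (4.52 to 72.8). The fitted log2FC was 2.56 ± 0.49 (SE, adjusted p = 0.0057) and 2.29 (adjusted p = 0.0076) at these weeks. At 1 week the call was lost under 9 of 20 alternatives, with adjusted p between 7.83e-04 and 0.039 over all of them, and at 2 weeks under 14 of 20, with adjusted p between 0.0012 and 0.049. Both calls were lost with the replicate number as a block, with adjusted p = 0.011 and 0.014. Of the 2825 exon bases of *Cfb*, 2246 (79.5%) lie in exons of *Gm20547*, a gene model on the same strand that is listed at 0 in every library, and 42.8% of the exon bases of *C2* do. If only the 579 bases that are not shared could be counted, the FPKM of *Cfb* was 2.95 and 3.18 *in vivo* and 0.112 and 0.116 *in vitro* at 1 week, and 3.06 and 2.35 against 0.375 and 0 at 2 weeks, with the same ratios between libraries. For *C2* the corresponding FPKM was 2.53 to 3.72 *in vivo* and 3.08 to 4.50 *in vitro*. Exons of *Zbtb12*, which reached an FPKM of 2.88, lie opposite 4.16% of the exon bases of *C2*. Whether fragments there were assigned by strand is not given. *Cfd* (ENSMUSG00000061780, chromosome 10 from 79890853 to 79892655, plus strand) encodes factor D, or adipsin, an abundant product of fat cells. It was listed at 0 in all 4 libraries of 1 week, at 0.192 and 0.0982 *in vivo* and at 0.0784 and 0 *in vitro* at 2 weeks. All of these lie under the level of 3 fragments, an FPKM of 0.211 to 0.295, so that a difference in *Cfd* was not detectable at this depth.

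*Serping1*, the gene of C1 inhibitor, was the most abundant of the 9 in every group (ENSMUSG00000023224, chromosome 2 from 84765387 to 84775444, minus strand). C1 inhibitor inactivates C1r and C1s and also restrains proteases of the contact system. At 1 week its FPKM was 377 and 386 *in vivo* and 172 and 153 *in vitro*. At 2 weeks these were 604 and 632 *in vivo* and 203 and 206 *in vitro*. The arms did not overlap, and replicates lay close together. *Serping1* had a log2FC of 1.23 ± 0.074 (SE, adjusted p = 3.18e-05) at the first week and 1.59 at the second (adjusted p = 8.11e-06). The first of these fell under the fold limit when values were quantile normalized (0.69) and when the scaling between libraries in the FPKM was undone (0.89), an alternative that shifts the median of all genes by -0.34 at 1 week and -0.32 at 2 weeks. *Serping1* had rank 59 of the tested genes *in vivo* at 2 weeks and rank 174 *in vitro*.

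**Figure D2:**
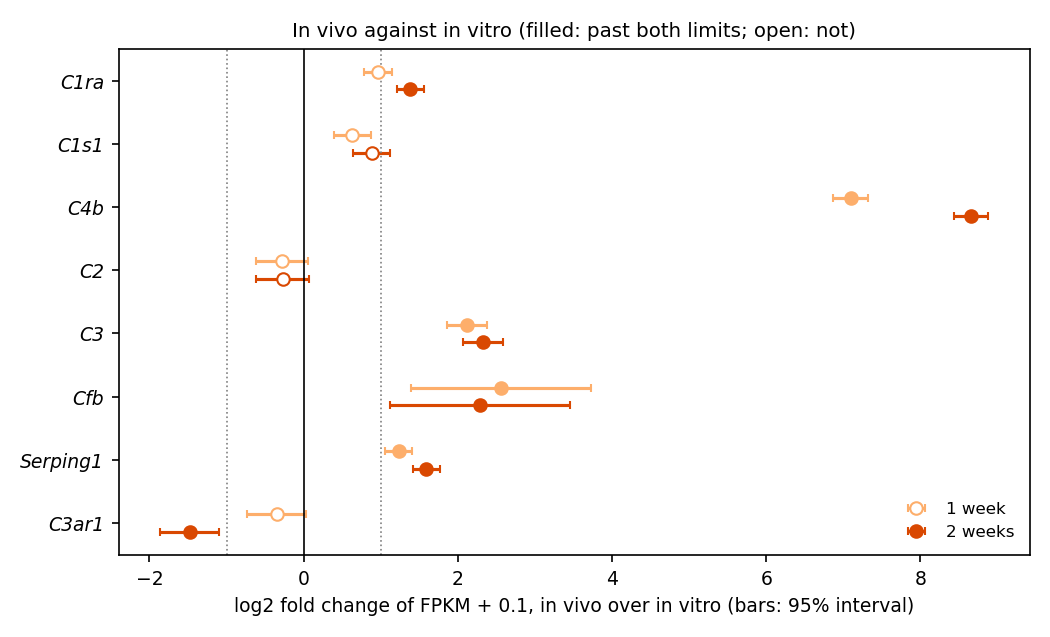
Log2 fold change of FPKM + 0.1, *in vivo* over *in vitro*, for the 8 tested genes at 1 week (light) and 2 weeks (dark), with 95% intervals from limma, filled where the gene was called and open where it was not. *C4b* lies at 7.09 and 8.66, the intervals of *C2* span 0, and *C3ar1* is the one gene called lower, at -1.48 at 2 weeks.

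*C3ar1* was the one gene of the 9 called lower *in vivo*, and only at 2 weeks. It encodes the receptor through which C3a acts on macrophages and other leukocytes (ENSMUSG00000040552, chromosome 6 from 122847138 to 122856161, minus strand). At 1 week its FPKM was 30.3 and 27.4 *in vivo* and 31.9 and 42.1 *in vitro*. By 2 weeks it was 17.2 and 13.5 *in vivo* and 40.8 and 44.7 *in vitro*. The arms stood close at 1 week and apart at 2 weeks, with the *in vivo* samples lower. The log2FC of *C3ar1* was -0.35 (95% interval -0.73 to 0.034, adjusted p = 0.13) after 1 week and -1.48 ± 0.16 (SE, adjusted p = 3.50e-04) after 2 weeks. Of the 14 macrophage markers, 3 were called higher and 1 lower after 1 week, against 3 higher and 6 lower after 2 weeks. Over all tested genes 7.79% were higher and 5.07% lower after 1 week, and 9.02% and 8.05% after 2 weeks. With a library left out the counts of macrophage markers were 2 to 3 and 1 to 2 at 1 week, and 1 to 3 and 5 to 6 at 2 weeks. The 3 higher at 2 weeks were 1 without replicate 1 of either arm at 2 weeks, without the intensity trend or with only those 4 libraries, and the 1 lower at 1 week was 2 without *in vitro* replicate 1, 3 with quantile-normalized values and 4 when the FPKM scaling was undone. Called higher were *Fcgr1*, an Fc receptor, at 1 week (log2FC 2.61), *Cx3cr1*, the fractalkine receptor, at both weeks (1.40 and 1.37), *Ccr2*, the receptor of CCL2 on monocytes (4.99 and 4.69), and at 2 weeks the scavenger receptor gene *Cd163* (1.49). *Ccr2* and *Cd163* lie under the mean FPKM of 5 set for named genes and were chosen after their values were seen. Called lower at 2 weeks were *Cd68* (-1.74), *Fcer1g*, *Lyz2*, *Tyrobp*, *Mrc1* and *Adgre1* (-1.04), which encodes F4/80, and of these *Lyz2* also at 1 week. *Cd68* had an FPKM of 66.3 and 51.6 *in vivo* and 185 and 208 *in vitro* at 2 weeks. The markers thus moved both ways between the arms, and their part in the difference of *C3ar1* was not tested. Over the 8 libraries the gene most like *C3ar1* was *Lcp1*, an actin-bundling protein of leukocytes, with a Pearson correlation of 0.995 on the log2 scale.

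**Figure D3:**
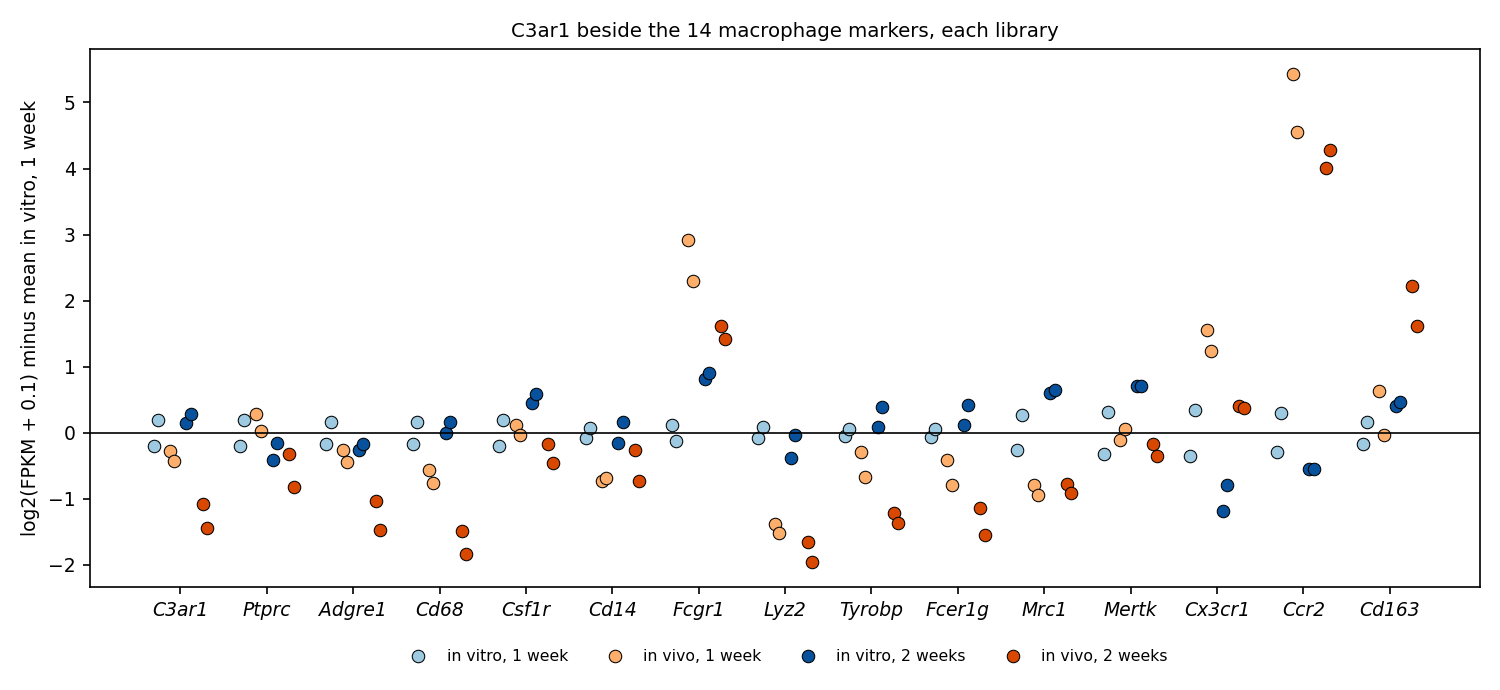
Log2 of FPKM + 0.1 relative to the mean of the *in vitro* samples at 1 week on that scale, for *C3ar1* and all 14 macrophage markers in each library, coloured by group. The 2 *in vivo* libraries of 2 weeks (FPKM of 17.2 and 13.5 for *C3ar1*) are the lowest for *C3ar1*, *Adgre1*, *Cd68*, *Lyz2*, *Tyrobp* and *Fcer1g*, while the *in vivo* libraries lie above the *in vitro* ones for *Ccr2*.

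A ratio of FPKM between 2 genes of one library cancels the scaling between libraries, except for the pseudocount of 0.1 that was added to both genes here. In this form 4 ratios were compared by an exact permutation test of 4 *in vivo* against 4 *in vitro* libraries, with both weeks pooled. Such a test cannot give a p under 0.0286. *Serping1* over *C1s1*, the inhibitor over a protease it blocks, was 6.45, 6.51, 6.65 and 7.84 *in vivo* and 4.20, 4.34, 4.65 and 4.19 *in vitro*. The log2 ratio was 2.77 ± 0.13 *in vivo* and 2.12 ± 0.071 *in vitro* (SD, n = 4, exact permutation test, two-sided, p = 0.0286, adjusted over the 4 ratios 0.038). Inhibitor transcripts thus outnumbered those of *C1s1* in every library, and by more *in vivo*, with a difference of 0.60 at 1 week and 0.71 at 2 weeks. *C1s1* over *C1ra* was 1.31, 1.16, 1.13 and 1.01 *in vivo* and 1.72, 1.39, 1.44 and 1.58 *in vitro*, lower in 4 of 4 *in vivo* libraries (difference of log2 ratios -0.42, exact permutation p = 0.0286, adjusted 0.038). The log2 ratio of *C2* over *C4b* was -5.00 ± 0.86 in the *in vivo* libraries and 3.15 ± 0.096 in culture (SD, n = 4, exact permutation p = 0.0286, adjusted 0.038). *C4b* passed the filter only through the *in vivo* samples, and *C2* differed little. The separation of this ratio therefore restates the difference of *C4b*, and its p adds no support. The pseudocount lowers this ratio in culture, where *C4b* was near 0.1, and without it *C2* over *C4b* was 12.7 to 15.3 *in vitro* and 0.0177 to 0.0515 *in vivo*. In culture there was thus more *C2* than *C4b* transcript per length, and in the heart less. *Cfb* over *C3* differed by 0.20 (exact permutation p = 0.66), a value set by the pseudocount, since it was 2.03 with a pseudocount of 0.01 and -1.59 with 1.

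**Figure D4:**
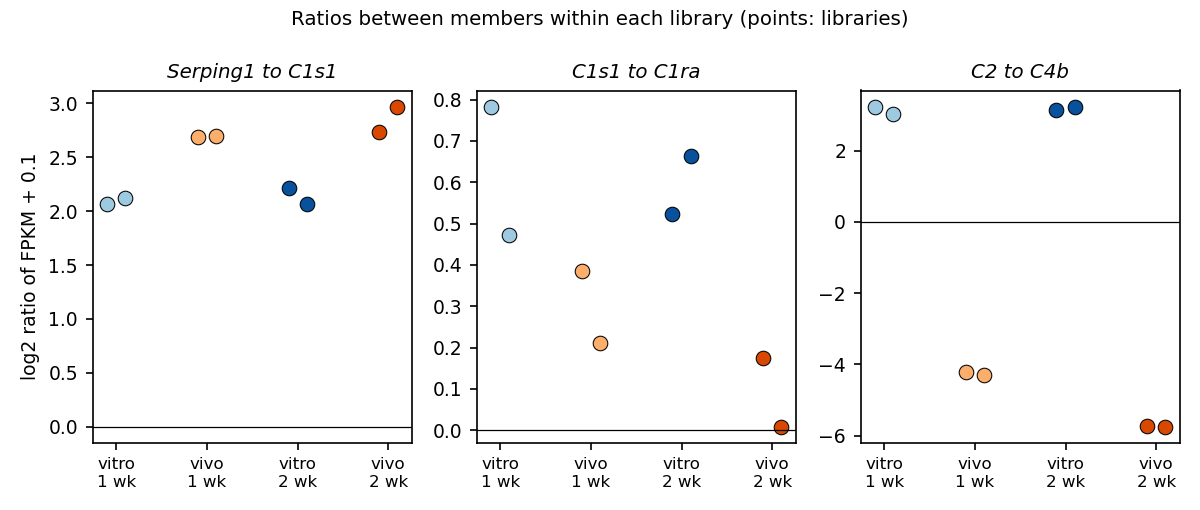
Log2 ratios of FPKM + 0.1 between members of each pair within a library, with points for libraries by group and a line at 0. All 4 *in vivo* libraries lie above all 4 *in vitro* libraries for *Serping1* to *C1s1* and below them for *C1s1* to *C1ra* and *C2* to *C4b*, where the *in vitro* libraries are near 3.15.

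From 1 week to 2 weeks *in vivo*, 2 of the 8 genes rose, *C4b* and *C3*, where 1.23% of all tested genes rose, 0.949% fell and 2.18% did either. *C4b* rose by 1.89 ± 0.094 on the log2 scale (SE, adjusted p = 4.99e-04), a call that was lost when the 4 *in vivo* libraries were fitted alone (adjusted p = 0.033). *C3* rose by 1.00 (adjusted p = 0.0025), at the fold limit itself, and the call was lost under 7 of 20 alternatives, among them without *in vivo* replicate 1 of 1 week (0.85) and without *in vivo* replicate 1 of 2 weeks (0.92), with adjusted p from 1.97e-05 to 0.056 over the alternatives. *C1ra* and *Serping1* had values of 0.74 and 0.69 with adjusted p of 0.0020 and 0.0024, under the fold limit, and *C3ar1* had -0.91 (adjusted p = 0.013). *In vitro* 0 of the 8 genes were called by limma, where 2.76% of all tested genes rose, 1.05% fell and 3.81% did either, and voom called 0 as well, although 6 had an unadjusted p under 0.05 and all 8 values were above 0, between 0.11 and 0.79. The largest of them was *C3*, from a mean FPKM of 54.3 to 94.0.

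The difference between the arms itself changed between the weeks for 1 of the 8 genes by limma's interaction contrast, where 0.573% of all tested genes were higher, 1.15% lower and 1.73% either. That gene was *C4b*, whose log2FC was larger at 2 weeks by 1.56 ± 0.13 (SE, adjusted p = 0.0034). *In vitro* it rests on 23 fragments at 1 week and 30 at 2 weeks. The pseudocount damps the *in vitro* rise and so enlarges this difference between the weeks. The difference was 1.38 with voom and 1.35 to 1.78 over the 19 alternatives. The call was lost under 10 of 19 alternatives, with the replicate number as a block (adjusted p = 0.0101), with voom on the recovered fragments (0.071) and without each of the 8 libraries in turn (0.011 to 0.018). *C3ar1* had a difference of -1.13 (adjusted p = 0.028), past the limits among protein-coding genes alone (adjusted p = 0.0086) and with voom (0.0021). For *C1ra*, *Serping1* and *C3* the differences were 0.42, 0.36 and 0.21 with adjusted p of 0.053, 0.079 and 0.43.

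By FPKM, which is per length, *Serping1* and *C3* led the 9 transcripts in every group. *C4b* stood at position 5 *in vivo* at 1 week, at position 3 at 2 weeks, above *C1s1*, and at position 7 *in vitro*, below *C2*. In culture *C1s1* and *C3ar1* followed *C3* and overlapped between replicates at both weeks. Over the 8 libraries the log2 values of *C3*, *Serping1*, *C1ra*, *C1s1* and *C4b* had Pearson correlations of 0.92 to 0.99 with each other, and *C3ar1* had -0.90 to -0.85 with them. These are descriptions over libraries that differ by arm and week, and 1574 of 13069 genes compared had a correlation over 0.9 with *C4b* and 1139 with *C3*. The closest to *C4b* was *Ace*, the angiotensin-converting enzyme, at 0.999, with a mean FPKM of 144 and 276 *in vivo* and 5.99 and 7.71 *in vitro*. The closest to *C3* was *Abi3bp*, a gene of the extracellular matrix, also at 0.999, with 11.9 and 32.8 *in vivo* and 1.02 and 2.39 *in vitro*. Of the 30 tested genes within 50 kb of one of the 9, other than the 9 themselves, 2 were higher and 0 lower *in vivo* at each week. Over all tested genes 7.79% and 9.02% were higher and 5.07% and 8.05% lower at these weeks. None of the called neighbours lay within 50 kb of *C4b* or *C3*, which had only 1 and 3 tested neighbours.

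Of 48 other complement genes listed, 28 were tested. At 1 week 4 were called higher *in vivo* and 4 lower, where 7.79% of all tested genes were higher and 5.07% lower, and at 2 weeks 4 and 7, where these shares were 9.02% and 8.05%. Of 11 regulators tested 3 were higher and 1 lower at each week, and of 2 proteases and components 0 were called at either week. *C7*, a component of the membrane pore, had an FPKM of 5.97 and 7.89 *in vivo* and 0.0485 and 0 *in vitro* at 1 week. By the second week these were 47.1 and 48.5 against 0.648 and 0.879, and the log2FC was 5.84 and then 5.81. The pseudocount holds the first of these down, since *C7* had 2 and 0 fragments *in vitro* at 1 week. The ratio of mean FPKM was 285 at 1 week and 62.6 at 2 weeks. As with *C4b*, the *in vivo* libraries stood apart from the *in vitro* ones at both weeks. *Clu*, which keeps the pore out of membranes, was higher at both weeks (2.62 and 1.17), and *Cfi*, the protease that cuts C3b and C4b, at 1 week (1.85) and not at 2 weeks (-0.12). Of 6 recognition genes tested, 0 were higher and 2 were lower at 1 week and 4 at 2 weeks. The chain genes *C1qb* and *C1qc*, made mainly by macrophages, had a log2FC of -1.06 and -1.10 at 2 weeks, and *C1qa* had -0.67, not called, while *C1qa* had an FPKM of 327 to 611 over the 8 libraries. None of these chain genes was called at 1 week, so that the recognition genes called lower then were others. Of 7 receptors tested, *C5ar1*, the receptor of C5a, was lower at both weeks (-1.01 and -1.84) and *Cd93* at 2 weeks (-1.33), the same direction as *C3ar1*.

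**Figure D5:**
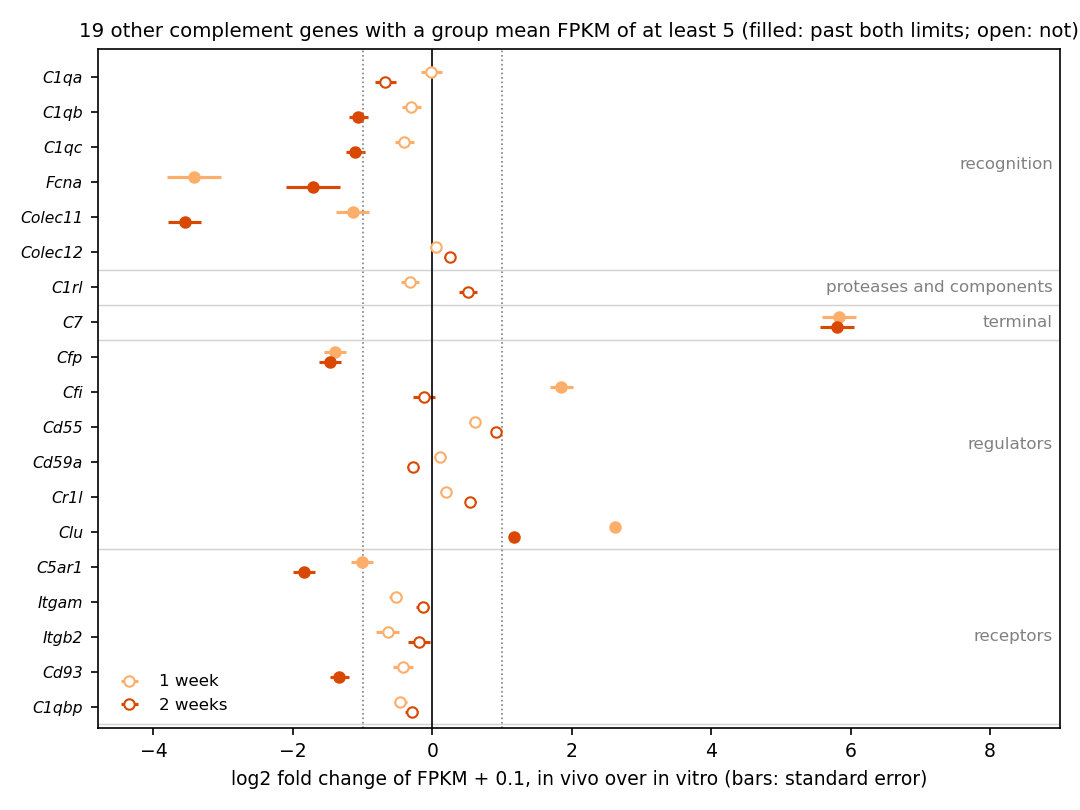
Log2 fold change of FPKM + 0.1, *in vivo* over *in vitro*, with standard errors from limma at 1 week (light) and 2 weeks (dark), for 19 other complement genes whose mean FPKM reached 5 in a group, by role and filled where called. *C7* lies near 5.8 at both weeks on this scale, where the pseudocount holds down its value at 1 week. The called recognition genes and receptors all lie below -1.

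Factors known to act at complement promoters were listed too, and 10 of 11 were tested. Of these 4 were higher *in vivo* and 0 lower at 1 week, where 7.79% of all tested genes were higher and 5.07% lower. At 2 weeks 2 were higher and 1 lower, where these shares were 9.02% and 8.05%. Among the factors *Stat2* and *Irf9*, which carry interferon signals to the nucleus, were called with a log2FC of 2.41 and 2.24 at 1 week. At 2 weeks *Stat2* and *Irf9* were also higher (1.91 and 1.86), and *Irf1* was lower (-1.14). *Nfkb1*, a subunit of NF-kB, was higher at 1 week (1.07). The C/EBP factor genes *Cebpb* (-0.52 and -0.68) and *Cebpd* (-0.415 and -0.27) were below 0 at 1 week and 2 weeks and were not called. From 1 week to 2 weeks *Cebpd* had a log2 change of 0.99 *in vivo* and 0.84 *in vitro* (adjusted p = 0.0034 and 0.0038 by limma), under the fold limit. Between the weeks 0 of the 10 factors were called *in vivo*, where 1.23% of all tested genes rose and 0.949% fell. *In vitro* 1 rose and 0 fell, where these shares were 2.76% and 1.05%. These are transcript levels, and what the factors do at the 9 genes was not measured.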

How the data were processed

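RNA libraries of eGFP+ cells were prepared, sequenced and mapped by a sequencing provider, and the submitters' processing notes name CASAVA, HISAT2 2.0.5 and mm10. The counting tool is not given in the sources used here. The values are FPKM as the authors deposited them. Fragments were recovered from the product of FPKM and length, which came out whole for 100% of the values within 0.01 fragments. The deposited FPKM hold a scaling between libraries: their library size over the fragments on genes was 0.863 to 0.915 *in vivo* and 1.09 to 1.15 *in vitro*. Between replicates the chi-square per gene was 4.50 to 9.93, above sampling noise. Of 54409 gene identifiers shared with GENCODE vM21 (GRCm38), 98.3% had the same start and end.

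The genes with 2 or more libraries at an FPKM of 0.5 or above were tested by limma 3.58.1 in R 4.3.3 on log2(FPKM + 0.1), with an intensity trend, all 8 libraries in 4 groups and Benjamini-Hochberg adjustment over all tested genes. The study used DESeq2, which needs counts, and it was not repeated. The members and lists were chosen with earlier results of these data known. All 9 members were named, and other listed genes with a group mean FPKM of at least 5. Exceptions under that level were *Ccr2*, *Cd163*, the copies *C4a* and *C1rb*, and the marker genes named as at 0 in every library. The genes taken as most alike were the 3 protein-coding genes with the highest correlation to each member. The values of 2 listed genes are not reported here, although the counts hold them. Ratios were compared by exact permutation. Alternatives were other pseudocounts, filters, scalings, limits and gene sets, voom on recovered fragments, the replicate number as a block and each library left out. The lengths of *C2* and *Cfb* without shared exon bases were added after seeing the data. The procedure was tested on simulated data. Intervals from fragments (95%, exact) cover counting error only. Python 3.11.15 was used with pandas 2.3.3, numpy 2.4.6, scipy 1.17.1 and matplotlib 3.10.9.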

Additional observations from a re-analysis of the deposited data

Results flagged for a closer look

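*C4b* was singled out because its difference between the arms was not the same at both weeks by limma's interaction contrast. The log2 fold change, *in vivo* over *in vitro*, was larger at 2 weeks than at 1 week by 1.56 (standard error 0.13, 95% interval 1.25 to 1.88, adjusted p = 0.0034 with Benjamini-Hochberg adjustment). The FPKM *in vivo* went from a mean of 31.8 to 117.6 and *in vitro* from 0.133 to 0.192. The pseudocount of 0.1 damps the *in vitro* rise and so enlarges the difference, which was 1.35 to 1.78 over the 19 alternatives. The call was lost with the replicate number as a block (adjusted p = 0.0101), with voom (0.071) and without each of the 8 libraries in turn, with adjusted p from 5.30e-04 to 0.071 over its 19 alternatives. What sets this difference was not tested.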

How the results depend on the processing

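Of 797 comparisons of a value with its alternatives, 739 kept their direction and their side of the limits, 43 lost the call, 5 gained one and 10 turned in direction. The differences of *C4b* and *C3* at both weeks, and of *C1ra*, *Serping1* and *C3ar1* at 2 weeks, kept their calls under every alternative run. The replicate numbers did not pair the libraries (correlation of deviations -0.048 to -0.011 over 15708 genes). The fit with the replicate number as a block ended the calls of *Cfb* at both weeks (adjusted p = 0.011 and 0.014 by limma) and of the difference between the weeks in *C4b* and changed no other call of the 9 genes. Without the scaling between libraries, calls over all genes were in the higher direction for 36.8% in place of 60.6% at 1 week (906 higher and 1558 lower) and for 33.1% in place of 52.8% at 2 weeks (1032 and 2087). The other counts over all genes varied by more than 1.5 times mostly for changes between weeks. *In vivo*, 193 genes rose and 149 fell, against 0 and 0 in a fit of those 4 libraries alone and 69 and 21 without *in vivo* replicate 1 of 1 week. *In vitro*, 434 rose and 165 fell, likewise against 0 and 0. For the difference between the weeks there were 90 and 181, against 11 and 16 with the block 143 and 330 with voom, 1 and 1 without *in vivo* replicate 1 of 1 week and 2 and 6 without *in vitro* replicate 1 of 1 week, and the 796 genes lower at 1 week became 485 with a pseudocount of 1.

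The number of the 8 genes that rose *in vivo* between the weeks was 2, and 1 with a pseudocount of 1, after quantile normalization, without the scaling or without the intensity trend, 0 in a fit of those 4 libraries alone, and 1 to 2 with a library left out. For the difference between the weeks, the number higher was 1, and 0 with the block, with voom or with any library left out, and the number lower was 0, and 1 (*C3ar1*) at an adjusted p under 0.05, among protein-coding genes or with voom. With a library left out, other complement genes lower *in vivo* were 2 to 4 at 1 week (4 with all libraries) and 4 to 7 at 2 weeks (7 with all). Markers of other cell types higher at 2 weeks were 7, and 3 when only those 4 libraries were fitted. Promoter factors lower *in vivo* went from 0 to 1 at 1 week without the scaling, and at 2 weeks from 1 to 2 after quantile normalization, 3 without the scaling and 1 to 2 with a library left out. The difference in *C2* between the weeks (0.0072) turned to -0.011 with a pseudocount of 1 and -0.0028 after quantile normalization, and was -0.11 to 0.13 with a library left out. The change in *Cfb* *in vitro* (0.11) turned to -0.18 with a pseudocount of 0.01 and -0.030 with voom and was -0.30 to 0.52 with a library left out, and its difference between the weeks (-0.27) was -0.68 to 0.14. The log2 ratio of *Cfb* to *C3* (0.20) was 2.03 with a pseudocount of 0.01, -1.59 with 1 and -0.036 to 0.42 with a library left out. With 3 libraries against 4 the other ratios cannot pass (adjusted p = 0.076), with differences of 0.59 to 0.69 for *Serping1* to *C1s1*, -0.48 to -0.35 for *C1s1* to *C1ra* and -8.42 to -7.90 for *C2* to *C4b*. The cause of these changes was not tested. Depth limits *Cfd* and *Cfb in vitro*, which had at most 3 fragments per library.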
